A study of Arabidopsis thaliana with 9 samples.

Results

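Glutathione transferases of the phi and tau classes were followed in Arabidopsis thaliana root tips in which the ERF115 gene was overexpressed, disrupted or left intact. Members were chosen by gene family: of 41 listed loci, 13 of the phi class (GSTF) and 28 of the tau class (GSTU), a locus was taken where the array's probe annotation gave a probe set to that 1 gene. This left 13 probe sets, 1 per gene, of 22746 tested, namely 2 of the phi class (GSTF4 and GSTF13) and 11 of the tau class (GSTU15, GSTU16, GSTU18, GSTU20 to GSTU23 and GSTU25 to GSTU28). The other 28 loci have no such probe set in the annotation used here and were not analysed here.

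Seedlings were 5 days old, and root tips of 3 mm were cut off, frozen and profiled on Affymetrix arrays of 1 colour, with 3 arrays per genotype. The ERF115OE tips carry the ERF115 reading frame behind p35S, a viral promoter active in most cells and not restricted to the cells that normally use the gene. The erf115ko tips carry the T-DNA insertion SALK_021981 in ERF115, and the Col-0 tips are wild type. All 3 genotypes share the Col-0 background, were untreated and were grown on the same medium. Whether each line is a single transformant, how many tips were pooled and whether replicates came from separate cultures is not given in the sources used here, so the p-values speak only for the variation among these arrays, part of which may be technical. No probe set was named as ERF115 here, so the labels of the ERF115OE and erf115ko arrays were not checked against that transcript.

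Glutathione transferases join the tripeptide glutathione to reactive, electrophilic compounds such as herbicides, products of lipid oxidation and some plant metabolites. The conjugates are then carried into the vacuole by ABC transporters. The phi and tau classes are the large plant classes, many of their genes lie in tandem arrays, and many of them are induced by chemicals, wounding or hormones through TGA transcription factors. ERF115 encodes a transcription factor of the AP2/ERF type, known for its part in divisions of the quiescent centre and in regeneration of the root tip after injury.

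Values are on the log2 scale as made by RMA, a method that corrects the background, gives all arrays a common distribution and combines the probes of a probe set. Probe sets differ in how well they bind their transcript, so higher or lower values of different genes do not rank their transcript amounts. Differences at low values are compressed. Of the 13 members, 5 stood above 8 on every array (GSTU22 and GSTU25 to GSTU28, range 8.38 to 10.51), and 7 stood below 5 on every array (GSTF4, GSTU15, GSTU16, GSTU18, GSTU20, GSTU21 and GSTU23, range 2.42 to 4.50). GSTF13 lay between these, at 4.83 to 6.64. The spread within genotypes, as a residual SD over the 9 arrays, ran from 0.04 for GSTU23 to 0.35 for GSTF4.

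In bulk tips, fewer cells of a type and less RNA per cell cannot be told apart. The marker lists bear on which cells the tips held. Of 11 root tip markers 2 were measured, AGL42 of the quiescent centre and RCH1 of the meristem, and the mean of both ran from 6.08 to 6.20 in ERF115OE, from 6.45 to 6.54 in erf115ko and from 6.38 to 6.59 in Col-0. The mean of EXPA7 and EXPA18, expansins of root hair cells and the 2 measured of 8 markers of differentiated root, ran from 8.758 to 8.998 in ERF115OE, from 8.04 to 8.16 in erf115ko and from 7.84 to 8.29 in Col-0. The mean of 4 measured of 10 rapid wound and touch genes (STZ, CML23, CML37 and CML38) ran from 4.19 to 4.77 in ERF115OE, from 4.83 to 5.15 in erf115ko and from 5.30 to 5.69 in Col-0. RCA, the 1 measured of 8 shoot markers, ran from 4.46 to 4.57 in ERF115OE, from 4.40 to 4.82 in erf115ko and from 4.22 to 4.47 in Col-0. RNA integrity was read from the actin and GAPDH control probe sets, as the 3'-end minus 5'-end value (log2, SD, n = 3 each). For actin it was 2.04 ± 0.09 in ERF115OE, 2.22 ± 0.03 in erf115ko and 2.20 ± 0.11 in Col-0. For GAPDH it was 0.19 ± 0.07 in ERF115OE, 0.20 ± 0.10 in erf115ko and 0.20 ± 0.03 in Col-0. The root hair mean was thus higher, and the root tip mean and the mean of the touch genes lower, on every ERF115OE array than on any array of the other genotypes. The mean of the touch genes was also lower on every erf115ko array than on any Col-0 array, although none of these 4 genes passed in that comparison. Of the 2 root tip markers, only AGL42 passed between ERF115OE and Col-0 (-0.52, SE 0.09, limma adjusted p = 0.00789). RCH1 was at -0.13 (SE 0.09, limma adjusted p = 0.511), with overlapping arrays. In the same comparison EXPA7 (0.81, SE 0.08, limma adjusted p = 0.000438) and EXPA18 (0.85, SE 0.17, limma adjusted p = 0.0137) passed. So did CML23 (-1.55, SE 0.18, limma adjusted p = 0.000789), STZ (-1.12, SE 0.21, limma adjusted p = 0.0105) and CML38 (-1.07, SE 0.20, limma adjusted p = 0.0117). CML37 (-0.26, SE 0.08, limma adjusted p = 0.0913) did not. The part of these shifts in the results below was not tested.

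ERF115OE was set against Col-0 to ask which glutathione transferases change when ERF115 is produced in excess. GSTF13 fell 2.93-fold, GSTU27 rose 1.58-fold and GSTU23 rose 1.20-fold, while the remaining 10 members did not pass the test. That is 1 member lower and 2 higher of 13, beside 1.7% of all probe sets lower and 3.75% higher (limma, Benjamini-Hochberg adjusted p under 0.05 over 22746 probe sets). With each array centred on its median, 2.53% of all probe sets were lower and 3.31% higher. The call of GSTU23, whose values lie low, was lost in 11 of 16 other settings.

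**Figure D1:**
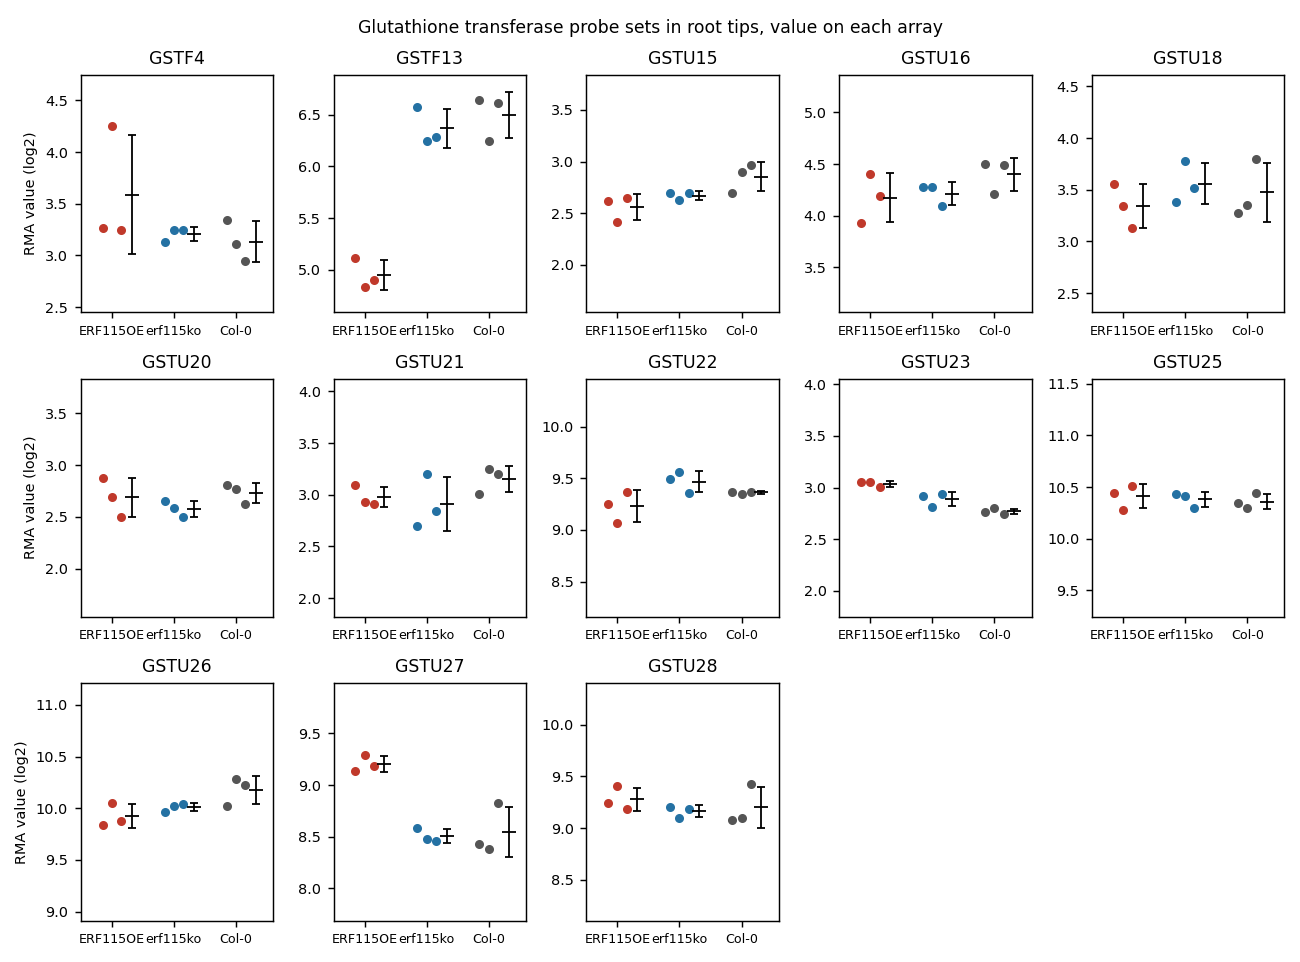
RMA value (log2) of the 13 glutathione transferase probe sets on each of 9 arrays, 3 per genotype, with ERF115OE, erf115ko and Col-0 from left to right. Points are arrays, the bar and whiskers beside them the mean and SD, and every panel spans the same height on its axis. GSTF13 sits at 4.83 to 5.11 in ERF115OE, below all other arrays, and GSTU27 at 9.14 to 9.29, above all others.

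GSTF13 (AT3G62760, on chromosome 3, listed as ATGSTF13 in RefSeq) is a phi class enzyme with no listed neighbour of its family beside it. Its value was 5.11, 4.83 and 4.90 on the ERF115OE arrays, 6.58, 6.24 and 6.28 on the erf115ko arrays, and 6.64, 6.24 and 6.61 on the Col-0 arrays. The ERF115OE arrays lie below all others by more than the spread within any genotype, while erf115ko and Col-0 overlap. The mean was 4.95 ± 0.15 in ERF115OE and 6.50 ± 0.22 in Col-0 (SD, n = 3 each), a log2 difference of -1.55 (SE 0.13, 95% interval -1.83 to -1.27, adjusted p = 0.000109 in limma), or 2.93-fold lower. Only 3 of all probe sets had a more negative difference in this comparison.

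GSTF4 (AT1G02950), the other phi member, closes a run of 4 neighbouring phi genes on chromosome 1, of which GSTF5, GSTF6 and GSTF7 were not analysed here. Its value was 3.26, 4.25 and 3.25 on the ERF115OE arrays, 3.13, 3.25 and 3.25 on the erf115ko arrays, and 3.34, 3.11 and 2.94 on the Col-0 arrays. ERF115OE replicate 2 alone stands apart. The difference of 0.46 from Col-0 (SE 0.23, adjusted p = 0.319) was 0.12 without that array. The 2 measured phi genes therefore gave values of opposite sign, of which only that of GSTF13 passed.

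GSTU27 (AT3G43800, chromosome 3) lies apart from the tandem arrays of its class. Its value was 9.14, 9.29 and 9.18 on the ERF115OE arrays, 8.58, 8.48 and 8.46 on the erf115ko arrays, and 8.43, 8.38 and 8.82 on the Col-0 arrays. All ERF115OE arrays are above all others, and Col-0 replicate 3 is the highest outside ERF115OE. The mean was 9.20 ± 0.08 in ERF115OE and 8.55 ± 0.24 in Col-0 (SD, n = 3 each), a log2 difference of 0.66 (SE 0.11, 95% interval 0.41 to 0.90, limma adjusted p = 0.00588). Without Col-0 replicate 3 the difference was 0.80. On that array EXPA18 also stood at 8.42, against 7.66 and 7.76 on the other Col-0 arrays. EXPA7 did not stand apart there, at 8.17 against 8.02 and 8.19.

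GSTU23 (AT1G78320) is the outermost gene of a run of 5 tau genes on chromosome 1, GSTU23, GSTU22, GSTU21, GSTU20 and GSTU19, of which GSTU19 was not analysed here. Its value was 3.06, 3.05 and 3.00 on the ERF115OE arrays, 2.92, 2.81 and 2.93 on the erf115ko arrays, and 2.76, 2.80 and 2.75 on the Col-0 arrays. The 3 genotypes do not overlap, but the whole span is 0.31 on the log2 scale and lies low, with only 21.9% of all probe sets below it in Col-0. The difference between ERF115OE and Col-0 was 0.27 (SE 0.06, limma adjusted p = 0.0325). This call was lost in 11 of 16 other settings, among them median centring of the arrays (adjusted p = 0.0774) and leaving out any 1 of the 6 arrays compared (0.0689 to 0.093).

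**Figure D2:**
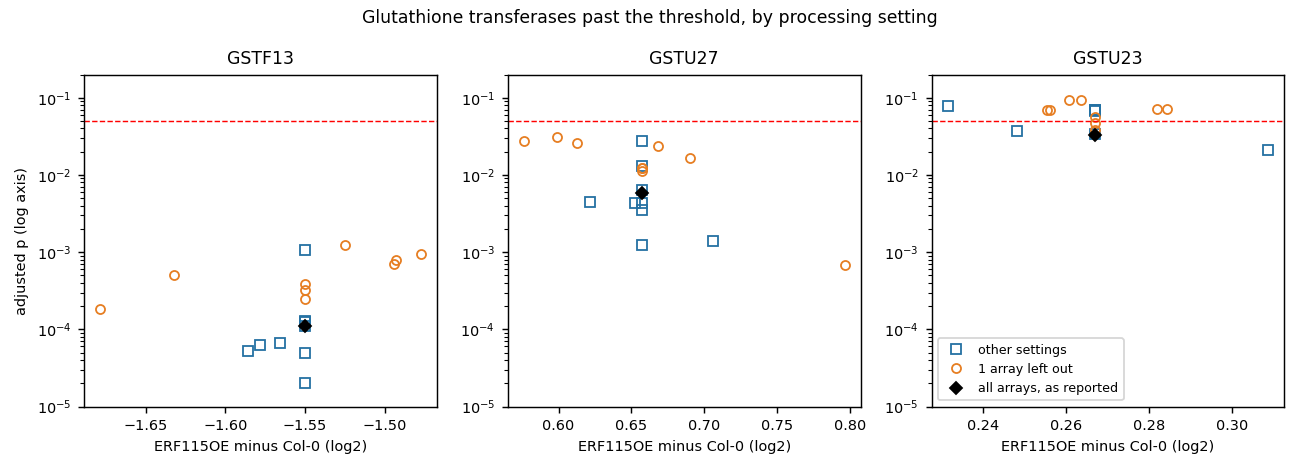
Log2 difference of ERF115OE from Col-0 (horizontal axis) and limma adjusted p (vertical axis, log scale) of GSTF13, GSTU27 and GSTU23 under each processing setting. The black diamond is the reported fit, squares are other settings, circles leave out 1 array, and the dashed line is the threshold of 0.05. All points of GSTF13 and GSTU27 lie under the line, and 11 of the 16 other points of GSTU23 lie above it.

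The other measured genes of the same run did not pass. GSTU22, next to GSTU23, was at 9.25, 9.07 and 9.37 in ERF115OE, 9.49, 9.56 and 9.35 in erf115ko, and 9.37, 9.35 and 9.37 in Col-0, so that the ERF115OE arrays reach into the Col-0 range (-0.13, SE 0.09, adjusted p = 0.457). GSTU21 was at 3.09, 2.93 and 2.91 in ERF115OE, 2.70, 3.20 and 2.84 in erf115ko, and 3.01, 3.25 and 3.20 in Col-0. GSTU20, whose protein is known to bind the jasmonate-conjugating enzyme FIN219/JAR1, was at 2.87, 2.69 and 2.50 in ERF115OE, 2.65, 2.59 and 2.50 in erf115ko, and 2.80, 2.77 and 2.62 in Col-0. The differences of GSTU21 and GSTU20 from Col-0, -0.17 (SE 0.12) and -0.04 (SE 0.10), were within the spread of the arrays. Of these 4 neighbours, then, 1 passed and 3 had values of the other sign that did not pass.

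GSTU25 and GSTU26 are neighbours in another run of 3 tau genes on chromosome 1, with GSTU24, which was not analysed here. GSTU25, known for conjugating the explosive trinitrotoluene, was at 10.44, 10.28 and 10.51 in ERF115OE, 10.43, 10.41 and 10.30 in erf115ko, and 10.34, 10.30 and 10.44 in Col-0. Its difference between ERF115OE and Col-0 was 0.05 (SE 0.08), with a 95% interval of -0.12 to 0.23, and its 9 values span 0.23. GSTU26, a gene known to respond to chloroacetanilide herbicides, was at 9.84, 10.05 and 9.88 in ERF115OE, 9.96, 10.02 and 10.04 in erf115ko, and 10.02, 10.28 and 10.23 in Col-0. It stood at -0.25 against Col-0 (SE 0.09, adjusted p = 0.137), and 1 ERF115OE array exceeded the lowest Col-0 array.

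GSTU15 and GSTU16 lie close together on chromosome 1. GSTU15 was at 2.62, 2.42 and 2.65 in ERF115OE, 2.69, 2.62 and 2.69 in erf115ko, and 2.69, 2.90 and 2.96 in Col-0. The ERF115OE and Col-0 arrays do not overlap, but the highest of the one and the lowest of the other nearly meet, and the difference of -0.29 (SE 0.09, adjusted p = 0.098) did not pass in any of 16 settings. GSTU16 was at 3.93, 4.40 and 4.19 in ERF115OE, 4.28, 4.28 and 4.09 in erf115ko, and 4.50, 4.21 and 4.49 in Col-0, with -0.23 against Col-0 (SE 0.12, adjusted p = 0.363) and overlapping arrays.

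GSTU18 and GSTU28 were the remaining tau members. GSTU18, the neighbour of the light and dehydration gene GSTU17 (ERD9), which was not analysed here, was at 3.56, 3.34 and 3.13 in ERF115OE, 3.38, 3.78 and 3.52 in erf115ko, and 3.27, 3.35 and 3.80 in Col-0. Its difference from Col-0 was -0.13 (SE 0.16), and 0.03 without Col-0 replicate 3. GSTU28 was at 9.24, 9.40 and 9.19 in ERF115OE, 9.21, 9.10 and 9.19 in erf115ko, and 9.08, 9.10 and 9.43 in Col-0, a difference of 0.08 (SE 0.10). In both genes Col-0 replicate 3 is the highest Col-0 array.

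Across the 10 members that did not pass, the differences between ERF115OE and Col-0 ran from -0.29 to 0.46, and their 95% intervals from -0.50 to 0.96. Missing the threshold does not show that these genes were unaltered. For each gene, changes within its own 95% interval remain compatible with the 3 arrays per genotype. The median over all 13 members was -0.13, and -0.09 without GSTF13, beside -0.02 over all probe sets. The arrays of ERF115OE and Col-0 did not overlap for 2 members higher and 2 lower, that is 4 of 13, beside 19.9% of all probe sets. An unadjusted p under 0.05 was reached by 5 of 13 members, beside 18.2% of all probe sets.

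**Figure D3:**
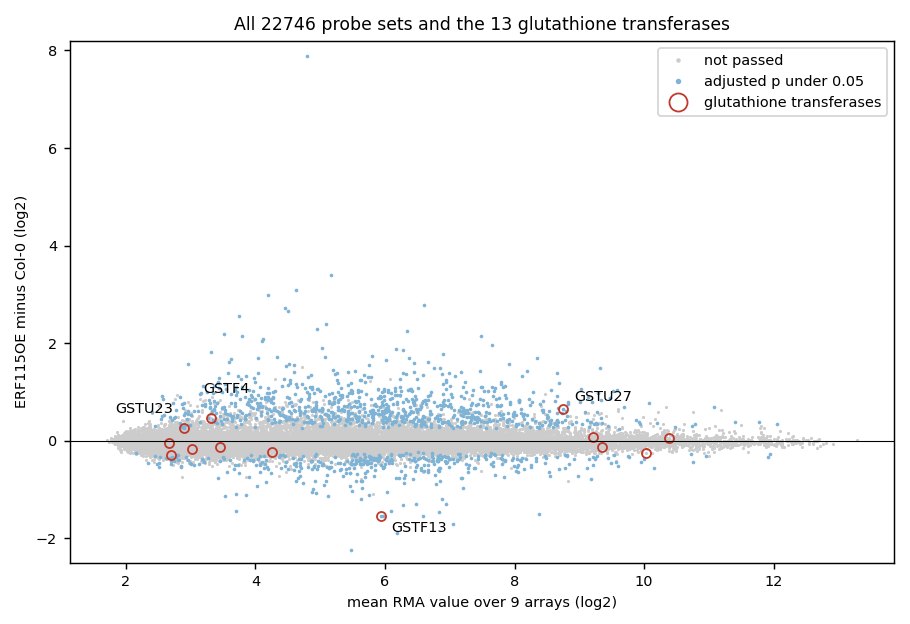
Log2 difference of ERF115OE from Col-0 against the mean value over the 9 arrays for all 22746 probe sets (grey, or blue where the adjusted p was under 0.05) and the 13 glutathione transferases (red circles). GSTF13 lies at -1.55 near the lower edge, GSTU27 at 0.66 at the upper side of its level, and the remaining members within 0.5 of 0.

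The erf115ko tips were compared with Col-0 to ask which members depend on the intact gene. None of the 13 passed, and all had an adjusted p of 1. None had an unadjusted p under 0.05 in limma either, beside 0.0132% of all probe sets called and 4.54% with an unadjusted p under 0.05. GSTF13 differed by -0.13 (SE 0.13, 95% interval -0.42 to 0.15), from a mean of 6.37 ± 0.18 in erf115ko and 6.50 ± 0.22 in Col-0. GSTU27 differed by -0.04 (SE 0.11, interval -0.28 to 0.20) and GSTU23 by 0.12 (SE 0.06, interval -0.02 to 0.26).

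The members with the smallest p here were GSTU15 (-0.18, SE 0.09), GSTU26 (-0.17, SE 0.09), GSTU21 (-0.24, SE 0.12) and GSTU23. GSTU23 was the 1 member of 13 whose erf115ko and Col-0 arrays did not overlap, beside 8.15% of all probe sets. The 95% intervals of all 13 members, each for its own gene alone, ran from -0.51 to 0.58. On the scale of these values a change of more than 1.49-fold lies outside every interval. Differences at low values are compressed, so this does not bound the change in transcript, least of all for the 7 members below 5 on every array. Missing the threshold does not show that a gene was unaltered here either. The median over the members was -0.04, beside 0.00 over all probe sets.

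**Figure D4:**
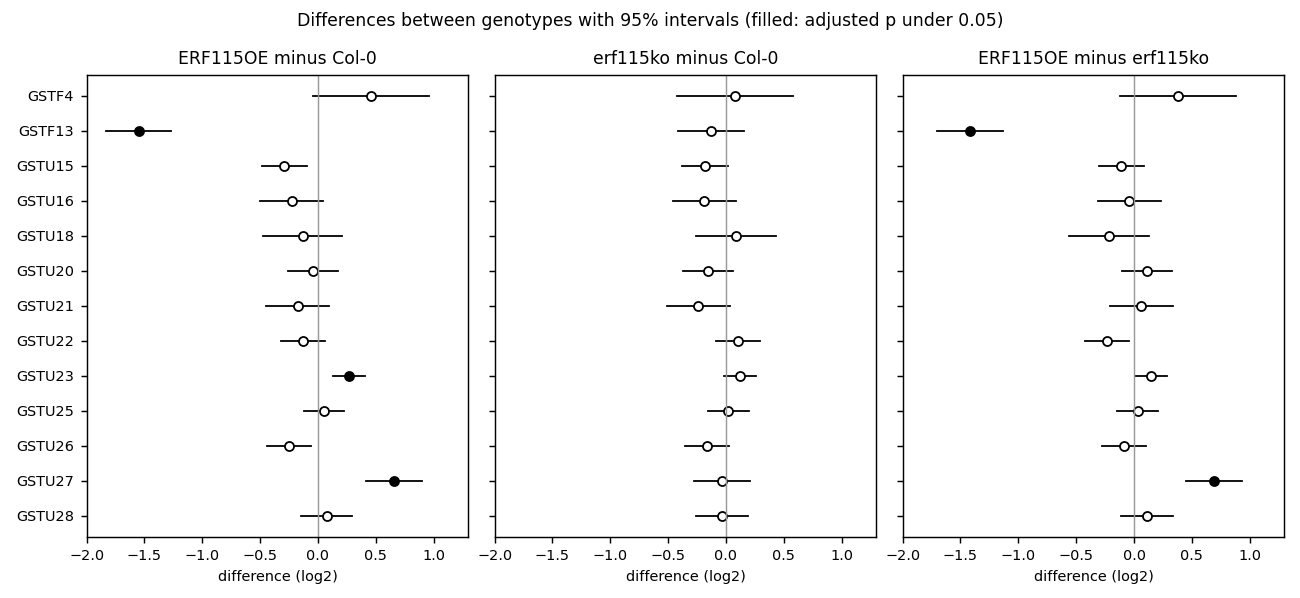
Log2 differences between genotypes for the 13 members, with 95% intervals from limma, for ERF115OE minus Col-0, erf115ko minus Col-0 and ERF115OE minus erf115ko. Filled points passed an adjusted p of 0.05: GSTF13, GSTU27 and GSTU23 in the first panel, none in the second, and GSTF13 and GSTU27 in the third.

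ERF115OE was also compared with erf115ko. The ERF115OE arrays are the same as in the comparison with Col-0, so the values are not independent of it. GSTF13 was 2.67-fold lower in ERF115OE, with a log2 difference of -1.42 (SE 0.13, 95% interval -1.70 to -1.13, limma adjusted p = 0.000241), and only 1 of all probe sets had a more negative difference. GSTU27 was 1.62-fold higher, with a mean of 9.20 ± 0.08 in ERF115OE and 8.51 ± 0.07 in erf115ko (0.69, SE 0.11, limma adjusted p = 0.00726). Here 1 member was higher and 1 lower of 13, beside 2.65% and 1.03% of all probe sets.

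GSTU23 did not pass against erf115ko (0.15, SE 0.06, adjusted p = 0.274), although the arrays did not overlap. Such separation held for 3 of 13 members, GSTF13, GSTU27 and GSTU23, beside 20.1% of all probe sets. GSTU22 stood at -0.24 (SE 0.09, adjusted p = 0.202), with 1 ERF115OE array, at 9.37, above the lowest erf115ko array, at 9.35. GSTF4 was at 0.38 (SE 0.23, adjusted p = 0.471), and at 0.05 without ERF115OE replicate 2. The intervals of the 11 members that did not pass ran from -0.56 to 0.88, and the median over all 13 was 0.03, beside -0.02 over all probe sets.

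Few other genes of glutathione metabolism could be read with the annotation used here. Of 67 genes on 8 lists around these enzymes, 6 had a probe set with 1 gene, and none passed in any comparison. Of 11 genes of glutathione synthesis and turnover, 3 were measured. GR1, the cytosolic glutathione reductase that regenerates reduced glutathione, was at 9.92, 9.88 and 9.83 in ERF115OE and 9.81, 9.66 and 9.92 in Col-0 (0.07, SE 0.08). GR2, the organellar reductase, differed by -0.03 (SE 0.08) and GGCT2;3, of the gamma-glutamyl cyclotransferase family, by -0.04 (SE 0.10). The median over these 3 was -0.03, and the arrays of ERF115OE and Col-0 overlapped for each of them.

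Among 12 genes of other glutathione transferase classes only GSTL3, of the lambda class, was measured. It was at 4.71, 4.89 and 4.72 in ERF115OE and 4.77, 4.41 and 4.94 in Col-0 (0.07, SE 0.12). Of 8 anthocyanin genes, listed because the phi class gene GSTF12 acts in anthocyanin transport, DFR and UF3GT were measured, at -0.19 (SE 0.12) and -0.19 (SE 0.18). No gene was read on the lists of glutathione peroxidase-like proteins, vacuolar ABC transporters, TGA factors, xenobiotic and oxylipin response, and camalexin synthesis. None of these had a probe set to itself in the annotation used here, and they may lie on probe sets unnamed here. The changes of GSTF13 and GSTU27, and the call of GSTU23 that most other settings lost, therefore stand here without readings of those genes.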

How the data were processed

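The deposited values are log2 values that the authors made with RMA in affy 1.36, per the submitters' processing notes. The genome build and probe definition are not given in the sources used here. Of 22810 probe sets, 64 controls were left out. Names came from GEO's platform annotation, joined by Entrez ID to the RefSeq gene table of TAIR10.1, which gave names and gene order only: 13513 have 1 gene, of which 13436 matched a locus, 503 have several and 8730 are unnamed here. No listed locus lay on a probe set with several genes. Equal values on at least 2 arrays occurred for 56.5% of probe sets and for 6 of 13 members.

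The model was limma 3.58.1 (lmFit and eBayes; R 4.3.3), with 1 mean per genotype over all 9 arrays (6 residual and 4.49 prior degrees of freedom), and adjusted by the Benjamini-Hochberg method over 22746 probe sets, two-sided, threshold 0.05. The fit was also run on simulated data with independent normal noise and known changes. That run checks the code and says little about these arrays or about differences as small as that of GSTU23. Every member is named and its arrays given; of the gene lists, those past the threshold and up to 2 more per list are named, and GGCT2;3 was added because the list held 3. Members, gene lists and tests were chosen with earlier results of these data known. Precision is limited by the number of arrays, and the median SE of a difference was 0.10 over members and 0.09 over all probe sets. Array medians lay between 5.04 and 5.13, and correlations between arrays of 1 genotype between 0.9955 and 0.9981. Alternatives were median centring, quantile normalization, filters on the mean (above the median, or above 4), trended and robust priors, array weights, only the 6 arrays compared, the replicate number as a block, and each array left out.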

Additional observations from a re-analysis of the deposited data

How the results depend on the processing

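Of 663 values of single members under alternative settings, 636 kept their direction and side of the threshold. This count says little about robustness, because many settings could not change the direction. The filters, the priors, the 6 arrays, the replicate block and leaving out an array of the third genotype keep the difference itself and alter only its error or adjusted p. Most of the 39 results behind the count also did not pass in the reported fit. GSTF13 and GSTU27 kept their calls in all 18 settings of both comparisons of ERF115OE, GSTF13 at -1.68 to -1.48 against Col-0 and -1.50 to -1.31 against erf115ko, and GSTU27 at 0.58 to 0.80 and 0.65 to 0.73. GSTU23 lost its call against Col-0 in 11 settings, so that 1 member in place of 2 was higher with median centring, a trended prior, only the 6 arrays compared or the replicate block, and without any 1 of 7 arrays (1 to 2 with 1 array left out). It stood at 0.23 with median centring (adjusted p = 0.0774) and 0.27 with a trended prior (0.0692), the 6 arrays (0.0695) or the replicate block (0.0678). With either filter on low values 1 member was higher as well, because GSTU23 was removed by the filter. The filters left 6 and 7 of 13 members.

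Against Col-0, over all probe sets, 854 were higher and 387 lower in ERF115OE. With 1 array left out these were 522 to 976 and 226 to 377, the lowest being without Col-0 replicate 1 (522 higher; 540 without Col-0 replicate 2) and without ERF115OE replicate 3 (226 lower), and with only the 6 arrays 226 were lower. Against erf115ko, 602 were higher and 235 lower. Array weights gave 1079 and 683, and leaving out 1 array gave 280 to 695 and 75 to 262. There the counts fell without erf115ko replicate 1 (280 and 75), erf115ko replicate 3 (287 and 87), ERF115OE replicate 2 (366 and 135) and ERF115OE replicate 3 (377 and 111). Higher calls were 71.9% of all calls, and 61.2% with array weights. Between erf115ko and Col-0, 1 was higher and 2 lower. These were 2 higher with median centring or the median filter, 3 higher and 7 lower with array weights, 1 lower with the log2 filter or the replicate block, 0 lower with only the 6 arrays, and 0 to 1 higher and 0 to 5 lower with 1 array left out. The cause of these shifts was not tested.

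Values near 0 that did not pass changed sign in 10 results. With array weights GSTU16 stood at 0.024 in ERF115OE against erf115ko and GSTU28 at 0.018 in erf115ko against Col-0, and with median centring GSTU25 at -0.0055 in erf115ko against Col-0. With 1 array left out, values in erf115ko against Col-0 ran from -0.015 to 0.18 for GSTF4, -0.022 to 0.25 for GSTU18, -0.010 to 0.064 for GSTU25, -0.12 to 0.10 for GSTU27 and -0.098 to 0.078 for GSTU28. In ERF115OE against Col-0 they ran from -0.24 to 0.030 for GSTU18 and -0.14 to 0.051 for GSTU20. In ERF115OE against erf115ko they ran from -0.15 to 0.081 for GSTU16, -0.044 to 0.21 for GSTU21 and -0.020 to 0.096 for GSTU25.

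The replicate numbers were not used to pair the arrays in the reported fit. Deviations of arrays from their group means were correlated across probe sets. For ERF115OE and Col-0, same-numbered arrays gave -0.21 to 0.06 and differently numbered ones -0.23 to 0.28. For ERF115OE and erf115ko these were -0.03 to 0.05 and -0.10 to 0.08. For erf115ko and Col-0 they were 0.10 to 0.14 and -0.08 to -0.04, so same-numbered arrays of these genotypes deviated slightly alike. Whether they shared a batch was not tested. With the replicate block 885 probe sets were higher and 379 lower in ERF115OE than in Col-0, and GSTU23 was the 1 member whose call changed. None of the 13 members has a name that marks shared probes. Leaving out such probe sets could therefore not change the member counts and is no check of them.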
